A study of Triticum aestivum with 6 samples.

Results

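The genes described here are the most abundant transcribed genes of bread wheat leaves, those whose FPKM averaged 1000 or more over leaves grown at 4 °C and at 23 °C, with at least 1 FPKM at each temperature. FPKM is a fragment count adjusted for the length of the transcript and for how many fragments were mapped in all, so levels of different genes can be set side by side. They are 86 of 99386 genes with an ID in the authors' table (0.0865%), and they were selected by the measured values themselves, as the sum over all transcripts of a gene. The levels and ratios below are therefore descriptions without a test.

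The RNA came from leaves of Triticum aestivum, with 3 libraries from plants labelled 4 °C and 4 weeks, and 3 libraries from plants labelled 23 °C and 2 weeks. The labels speak of 2 weeks of cold. Both sets stood in chambers of their own under a 16-hour photoperiod and a light intensity of 120 μmol per square metre and second, and all 6 libraries carry the same lipid phenotype label, 18:3. The table holds 1 authors' value per temperature and none per library, so no SD, n or p-value can be given, and how much the libraries of a temperature differed is unknown. Temperature, chamber and labelled weeks cannot be told apart. Since leaf RNA was sequenced in bulk, fewer cells of a type and less RNA per cell cannot be told apart either. The sources used here do not give the cultivar or the number of plants, and leaf marker genes were not checked because the IDs carry no gene names.

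As background, the most abundant nuclear transcripts of a green leaf commonly come from photosynthesis genes, among them those of the small subunit of Rubisco and of the chlorophyll-binding proteins of the light-harvesting antennae. Bread wheat carries A, B and D subgenomes, and a gene is usually present as a homoeologous copy on the corresponding arm of each. The IDs used here give the chromosome arm and nothing on function, and 0 of the 86 matched the RefSeq genes of the assembly IWGSC CS RefSeq v2.1, so none of them is given a name or role, and no sequence is shown.

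Summed over the 86 genes, the level was 167857 FPKM at 4 °C, against 212954 FPKM at 23 °C, a ratio of 0.788. All other transcripts together went the other way, with 884597 FPKM at 4 °C, against 793086 FPKM at 23 °C, a ratio of 1.12. Because FPKM is relative to all mapped fragments, the sums of the members and of the rest are not separate results. The 86 genes thus made up 15.9% of the table's total FPKM at 4 °C, against 21.2% at 23 °C. Of the 86, 60 were lower at 4 °C and 26 higher. Lower values at 4 °C were found in 44.2% of the 42972 genes that averaged 1 FPKM or more.

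A 2-fold difference was counted on the scale of log2(FPKM + 1). The pseudocount of 1 hardly matters at these levels, except for Traes_2AL_079988C38 with 1.07 FPKM at 23 °C. By the 2-fold measure 19 members were lower at 4 °C and 4 were higher. Among the 42972 genes, 6.62% were lower and 12.4% higher at 4 °C by this measure. The median log2 ratio of 4 °C over 23 °C was -0.32 over the members, with quartiles of -0.86 and 0.06, and 0.09 over the 42972 genes. For genes of the next class of abundance, the 995 that averaged 100 to under 1000 FPKM, the median was 0.28, with 113 lower and 263 higher by at least 2-fold. Since both temperatures entered the choice of members, nothing is read from these counts beyond the values.

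The size of these shifts depends on how the columns are scaled, and that of the members grew after scaling. Median-of-ratios scaling multiplied the values at 4 °C by 0.925, a shift of -0.11 in log2 of FPKM that brought the median log2 ratio of the 42972 genes to 0.0006. After it, 66 members were lower at 4 °C and 20 higher, 21 of them lower and 4 higher by at least 2-fold, and the median log2 ratio of the members was -0.43. The 6 members that turned from higher to lower had deposited ratios of 1.003 to 1.08, and they were on 1BL, 2BS, 2DS, 5BL, 6DL and 7BL.

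Levels at 4 °C ran from 303 to 9370.5 FPKM with a median of 1441, and those at 23 °C from 1.07 to 11466 FPKM with a median of 1880.5. At least 1000 FPKM was reached at both temperatures by 57 members, at 4 °C alone by 9 and at 23 °C alone by 20. A difference of at most 1.2-fold either way was seen in 25 members. The plot of level against level shows the members of 2AS, 2BS and 2DS mostly below the line of equal values, and the most abundant members of 5AL, 5BL and 5DL above it.

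**Figure D1:**
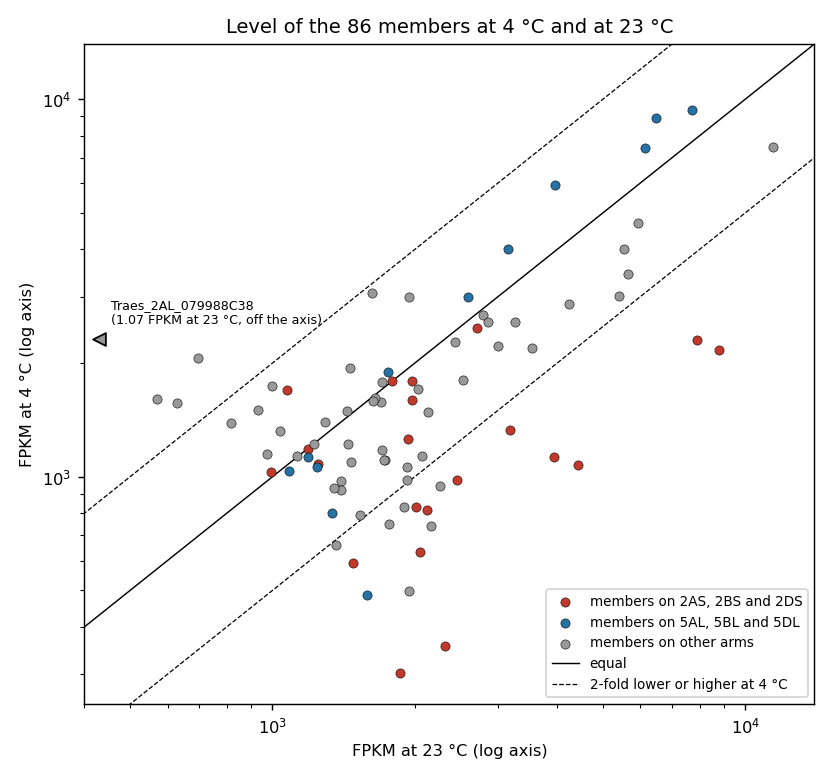
FPKM at 4 °C (vertical, log axis) against FPKM at 23 °C (horizontal, log axis) of the 86 members, 1 point a gene and 1 authors' value per temperature, so no error bars. Of the 21 red points (2AS, 2BS, 2DS), 12 lie below the lower dashed line of 2-fold difference. All 6 blue points (5AL, 5BL, 5DL) with a mean of at least 2000 FPKM lie above the solid line of equal values. Traes_2AL_079988C38 is drawn as a triangle at the left edge, since its 1.07 FPKM at 23 °C is off the axis.

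The threshold of 1000 FPKM cut through a continuous range. Just inside lay Traes_2BL_342BDEA35 with a mean of 1012 FPKM, Traes_2DS_53A082B2C with 1013 FPKM and Traes_5DL_C51E9ECBB with 1035 FPKM. Just outside lay Traes_2DS_28E23A3D3 with a mean of 981 FPKM, Traes_5DS_E8892706A with 966 FPKM and Traes_2AS_2E706E893 with 965 FPKM. The second condition, at least 1 FPKM at each temperature, left out a pair of genes with a mean above 1000 FPKM. Traes_2BL_6382E3EFF had 2112 FPKM at 4 °C compared with 0.824 FPKM at 23 °C, and Traes_5DL_8BBB72707 had 9748 FPKM at 4 °C and was listed at 0 at 23 °C.

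The 10 members with the highest mean lay on 3AL, 5AL (2 genes), 5DL, 2DS, 4DS, 2AS, 5BL and 3B (2 genes). Traes_3AL_4F4132490 led with 7469 FPKM at 4 °C, against 11466 FPKM at 23 °C, a ratio of 0.651. It held rank 4 of all genes at 4 °C and rank 1 at 23 °C, with Traes_5AL_AD0034878, Traes_5AL_9C5A73F10 and the gene listed at 0 at 23 °C above it at 4 °C. Traes_2DS_3CC5F156F held rank 25 at 4 °C and rank 2 at 23 °C, and Traes_2AS_7425ED39F rank 21 at 4 °C and rank 3 at 23 °C. Together the 10 genes had 55726 FPKM at 4 °C compared with 69560.3 FPKM at 23 °C, a ratio of 0.801 close to that of all members.

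By homoeologous arm group, members occurred in 12 of 13 groups and on 29 of 41 arms. Chromosome 3B is not split into arms, so group 3 was kept whole, and 4AS was set beside 4BL and 4DL, its counterparts since the arms of 4A were exchanged by an inversion. The short arms of group 1 held no member. The most members, 21, were on 2AS, 2BS and 2DS, which is 2.94 for each 1000 gene IDs of those arms. By number of members the next groups were 2AL, 2BL and 2DL with 12 (1.09 for each 1000) and 5AL, 5BL and 5DL with 12 (1.06 for each 1000). For each 1000 gene IDs the second group was 4AL, 4BS and 4DS, with 8 members and 1.16.

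Members of the group 2 short arms accounted for most of the difference in summed level, being lower at 4 °C by 31006 FPKM, while all 86 members together were lower by 45097 FPKM. The remaining 65 members had 141420.0 FPKM at 4 °C, against 155511 FPKM at 23 °C, a ratio of 0.909, and 42 of them were lower at 4 °C. Summed levels of the members were higher at 4 °C in 3 arm groups. These were 5AL, 5BL and 5DL (ratio 1.18), 4AS, 4BL and 4DL (1.09) and 7AL, 7BL and 7DL (1.01). After median-of-ratios scaling the first had a ratio of 1.09, the second 1.01 and the third 0.931. In the deposited values, the other genes of the same arms, members left out, had a ratio above 1 in each of the 13 groups. It ran from 1.05 on 2AS, 2BS and 2DS to 1.27 on 1AL, 1BL and 1DL. Taken by itself, 2AS had a ratio of 0.971 for these genes. The scaling factor of 0.925 on the values at 4 °C would bring the lowest group ratio below 1 as well.

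**Figure D2:**
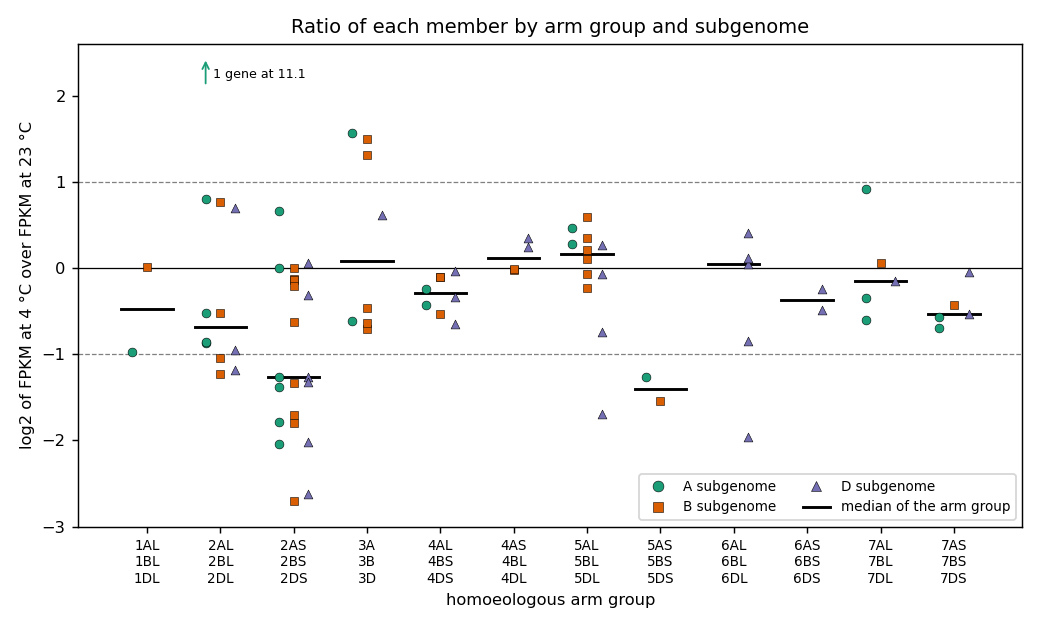
Log2 of FPKM at 4 °C over FPKM at 23 °C (vertical) of each member, by homoeologous arm group (horizontal), with colour and shape for the subgenome and a bar for the median of the group. Dashed lines mark 2-fold. The group 2 short arms have a median ratio of 0.415 and the group 5 long arms one of 1.12, and members of groups 6AL/6BL/6DL and 6AS/6BS/6DS are all D genes. Ratios are drawn without a pseudocount. Traes_2AL_079988C38, with a log2 ratio of 11.1 (10.1 with the pseudocount of 1), is drawn as an arrow.

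**Figure D3:**
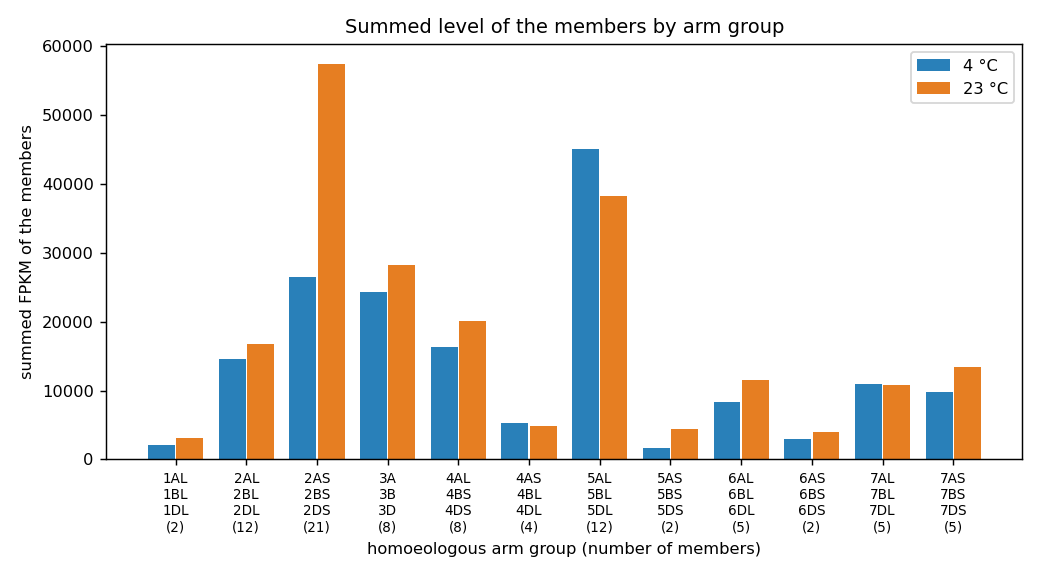
Summed FPKM of the members (vertical) by homoeologous arm group (horizontal, number of members in brackets), with 4 °C left of 23 °C in each pair of bars. The group 2 short arms have 26438 FPKM at 4 °C compared with 57443 FPKM at 23 °C, and the group 5 long arms 45021 FPKM at 4 °C, against 38210.1 FPKM at 23 °C.

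On 2AS, 2BS and 2DS, the 21 members had 26438 FPKM at 4 °C compared with 57443 FPKM at 23 °C, a ratio of 0.460. They took 34.9% of the FPKM of these arms at 4 °C and 54.9% at 23 °C. Of the 21, 18 were lower at 4 °C, 12 of them by at least 2-fold, and these 12 were spread evenly, with 4 on each arm. The 12 had 12514 FPKM at 4 °C, against 42556 FPKM at 23 °C, a ratio of 0.294 that was 0.305 on 2AS, 0.276 on 2BS and 0.293 on 2DS. The other 9 had 13923 FPKM at 4 °C compared with 14887 FPKM at 23 °C, a ratio of 0.935. Genes of these arms that averaged 100 to under 1000 FPKM were lower at 4 °C in 41 of 79 cases, with a median log2 ratio of -0.01 and a ratio of sums of 0.877.

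The steeply lower genes on 2AS began with Traes_2AS_7425ED39F at 2296 FPKM at 4 °C, against 7901 FPKM at 23 °C (ratio 0.291). Traes_2AS_3953901E4 had 1077 FPKM at 4 °C, against 4424 FPKM at 23 °C (0.243). Ratios were less extreme for Traes_2AS_B86EFFF66, with 818 FPKM at 4 °C compared with 2125 FPKM at 23 °C (0.385), and for Traes_2AS_64BCCAA8B, with 833 FPKM at 4 °C, against 2009.8 FPKM at 23 °C (0.415). The remaining 2AS members did not follow them. Traes_2AS_DDDAF2E70 had 1185 FPKM at 4 °C compared with 1188 FPKM at 23 °C (0.997), while Traes_2AS_A18A69CB0 was higher in the cold, with 1702 FPKM at 4 °C, against 1072 FPKM at 23 °C (1.59).

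The arm 2BS held the lowest ratio of all members, that of Traes_2BS_ADC2F0EB8, with 356 FPKM at 4 °C compared with 2317 FPKM at 23 °C (0.154). Traes_2BS_0AF61748C had 1129.7 FPKM at 4 °C, against 3941 FPKM at 23 °C (0.287). Both of these exceeded 2000 FPKM at 23 °C, as did the gene given next. Traes_2BS_640D008BF had 631 FPKM at 4 °C, against 2056 FPKM at 23 °C (0.307). Traes_2BS_762E60A0B had 589 FPKM at 4 °C, against 1482 FPKM at 23 °C (0.398).

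The other 5 members of 2BS stood closer to equality, and the most abundant gene of the arm was among them. Traes_2BS_E68F1B47C had 2483 FPKM at 4 °C, against 2708 FPKM at 23 °C (0.917). Traes_2BS_9AC399080 had 1788 FPKM at 4 °C compared with 1974 FPKM at 23 °C (0.906). For Traes_2BS_926E8FE94 the values were 1797 FPKM at 4 °C, against 1792 FPKM at 23 °C (1.003), equal to within 1% in the deposited values. Of the last pair, Traes_2BS_0E6D454B0 had 1081 FPKM at 4 °C compared with 1246 FPKM at 23 °C (0.868), and Traes_2BS_4AE914BE2 had 1257 FPKM at 4 °C, against 1936 FPKM at 23 °C (0.649).

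On 2DS, Traes_2DS_3CC5F156F was the most abundant member of the 3 arms, with 2169.6 FPKM at 4 °C, against 8793 FPKM at 23 °C (0.247). Its difference of 6623 FPKM was the largest of any member. Traes_2DS_F7D244C5A had 1331 FPKM at 4 °C compared with 3187 FPKM at 23 °C (0.418), and Traes_2DS_46C9F8F5F had 979 FPKM at 4 °C, against 2455 FPKM at 23 °C (0.399). The second lowest ratio of all members belonged to Traes_2DS_F6B4C05C5, at 303 FPKM at 4 °C compared with 1865 FPKM at 23 °C (0.162), close in level and ratio to Traes_2BS_ADC2F0EB8. Smaller differences were seen for Traes_2DS_FA532168A, with 1598 FPKM at 4 °C, against 1977 FPKM at 23 °C (0.808), and for Traes_2DS_53A082B2C, with 1032 FPKM at 4 °C compared with 994 FPKM at 23 °C (1.04). Reads of near-identical copies, on the same or on homoeologous arms, can be assigned to each other, and which IDs are copies of each other is not known here, so like values on 2AS, 2BS and 2DS may not be separate measurements.

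**Figure D4:**
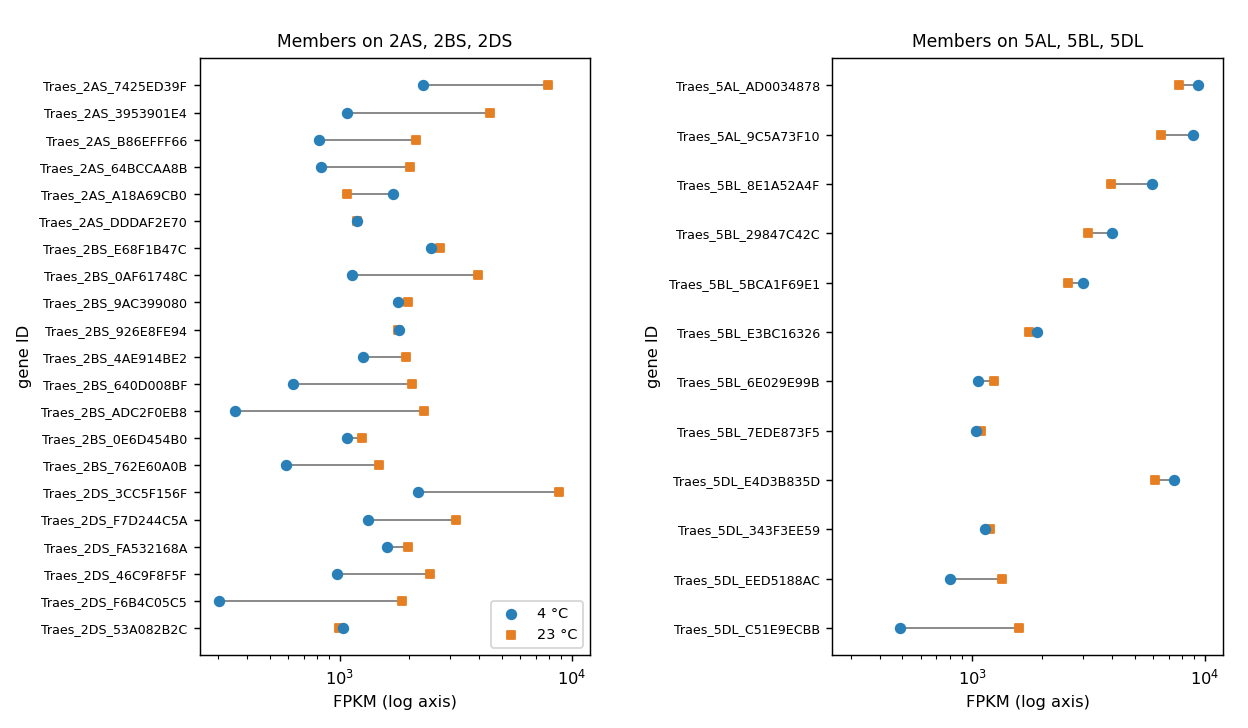
FPKM (horizontal, log axis) at 4 °C (blue circles) and at 23 °C (orange squares) of each member on the group 2 short arms (left) and the group 5 long arms (right), ordered by arm and mean level, with a line joining the 2 values of a gene. On the left the blue point lies left of the orange one in 18 of 21 genes. On the right it lies to the right of it in 7 of 12.

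The long arms of group 5 held the members with the highest levels at 4 °C. The 12 members on 5AL, 5BL and 5DL had 45021 FPKM at 4 °C, against 38210.1 FPKM at 23 °C, a ratio of 1.18, and made up 4.28% of the table's total FPKM at 4 °C, against 3.80% at 23 °C. On these arms direction went with level, but both come from the same values, so nothing further is read from it. Among members of all arms, 19 of the 27 that averaged 2000 FPKM or more were lower at 4 °C. On the group 5 long arms all 6 such members were higher at 4 °C, with ratios of 1.15 to 1.502. Their sums were 38620.0 FPKM at 4 °C compared with 30021 FPKM at 23 °C. Of the 6 on these arms with a lower mean, 5 were lower at 4 °C. The sums of these 6 were 6401 FPKM at 4 °C, against 8189 FPKM at 23 °C, a ratio of 0.782. The gene on 5DL listed at 0 at 23 °C is no member, and with it the ratio of the arms was 1.43. That the short arms of group 2 and the long arms of group 5 differ in direction has no replicate check and was not tested.

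Traes_5AL_AD0034878 had the highest level of any member at 4 °C, with 9370.5 FPKM at 4 °C, against 7726 FPKM at 23 °C (1.21). Traes_5AL_9C5A73F10, the other member of 5AL, had 8920.1 FPKM at 4 °C compared with 6485 FPKM at 23 °C (1.38). The leading member of 5DL was of the same order, Traes_5DL_E4D3B835D with 7404 FPKM at 4 °C, against 6128 FPKM at 23 °C (1.21). On 5BL, 3 genes averaged 2000 FPKM or more. Traes_5BL_8E1A52A4F had 5937 FPKM at 4 °C compared with 3952 FPKM at 23 °C (1.502), the highest ratio of the 12. Traes_5BL_29847C42C had 4003 FPKM at 4 °C, against 3142 FPKM at 23 °C (1.27). Traes_5BL_5BCA1F69E1 had 2986 FPKM at 4 °C compared with 2588 FPKM at 23 °C (1.15). The limit on reads of near-identical copies applies here too. Like values on 5AL, 5BL and 5DL may therefore not be separate measurements.

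Less abundant members of these arms were near equal or lower at 4 °C. Traes_5BL_E3BC16326 had 1891 FPKM at 4 °C, against 1753 FPKM at 23 °C (1.08), and its ratio after scaling was 0.998. Traes_5BL_7EDE873F5 had 1033 FPKM at 4 °C compared with 1086 FPKM at 23 °C (0.951), and Traes_5DL_343F3EE59 had 1130.1 FPKM at 4 °C, against 1189 FPKM at 23 °C (0.951). Traes_5BL_6E029E99B was lower, with 1058 FPKM at 4 °C compared with 1243 FPKM at 23 °C (0.852). The lowest ratios were both on 5DL. Traes_5DL_EED5188AC had 801 FPKM at 4 °C, against 1336 FPKM at 23 °C (0.599), and Traes_5DL_C51E9ECBB had 488 FPKM at 4 °C compared with 1582 FPKM at 23 °C (0.308). The members of 5DL together, at 9822 FPKM at 4 °C, against 10235 FPKM at 23 °C, were the only ones of the 3 arms with a lower sum at 4 °C.

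The long arms of group 2 held members of each kind. Of 12 members on 2AL, 2BL and 2DL, 8 were lower at 4 °C, 3 of them at least 2-fold. These were Traes_2BL_B614F03D1 with 748 FPKM at 4 °C compared with 1761 FPKM at 23 °C (0.425), Traes_2DL_6E913E1A4 with 832 FPKM at 4 °C, against 1896 FPKM at 23 °C (0.439), and Traes_2BL_342BDEA35, just inside the threshold, with a ratio of 0.485. The most abundant member was Traes_2BL_4B8B77E73, with 1483 FPKM at 4 °C, against 2129.9 FPKM at 23 °C (0.696). The leading member of 2AL, Traes_2AL_3D221F120, had 1134 FPKM at 4 °C compared with 2069 FPKM at 23 °C (0.548). The other lower members had ratios of 0.517 (Traes_2DL_B574C3BD1), 0.552 (Traes_2AL_14B62F6C1) and 0.697 (Traes_2AL_264BF03F4). Higher at 4 °C was 1 gene on each arm with nearly the same ratio, besides the gene described next. Traes_2AL_783CF383F had 1739 FPKM at 4 °C, against 996 FPKM at 23 °C (1.75). Traes_2BL_5D64E8C87 had 1391 FPKM at 4 °C compared with 818 FPKM at 23 °C (1.70), and Traes_2DL_93867FC79 had 1505 FPKM at 4 °C, against 932 FPKM at 23 °C (1.61). Whether the 3 are copies of each other is not given by the IDs.

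Traes_2AL_079988C38 stood apart from every other member. It had 2313 FPKM at 4 °C, rank 20 of all genes, and 1.07 FPKM at 23 °C, just above the 1 FPKM that the rule asks for. Its transcripts at 23 °C had 0.932 and 0.140 FPKM, and the second of these made up the level of 2312 FPKM at 4 °C. The member with the next lowest level at 23 °C was Traes_3B_D88E04B94, with 570.1 FPKM. Without Traes_2AL_079988C38 the members of the A subgenome had a ratio of sums of 0.777, in place of 0.808.

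Group 3 held 3 of the 4 members with at least a 2-fold higher level at 4 °C, and 4 of its 8 members were lower. Traes_3AL_B37D1E415 had 2058 FPKM at 4 °C compared with 696 FPKM at 23 °C (2.96). Traes_3B_D88E04B94 had 1611 FPKM at 4 °C, against 570.1 FPKM at 23 °C (2.83), and Traes_3B_B9451B200 had 1565 FPKM at 4 °C compared with 628 FPKM at 23 °C (2.49). Next to these, the sole member of 3DS, Traes_3DS_E4FD8BE97, had 2988 FPKM at 4 °C, against 1944 FPKM at 23 °C (1.54). The 3 most abundant members of the group were lower at 4 °C. Besides Traes_3AL_4F4132490 the lower members were Traes_3B_73957187E with 4019 FPKM at 4 °C compared with 5538 FPKM at 23 °C (0.726), Traes_3B_0E2257A61 with 3447 FPKM at 4 °C, against 5646 FPKM at 23 °C (0.61), and the less abundant Traes_3B_3793EBCBE (0.642).

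Members of group 4 all differed by less than 2-fold between the temperatures. All 8 on 4AL, 4BS and 4DS were lower at 4 °C, with ratios of 0.639 to 0.975, none at least 2-fold. The most abundant, Traes_4DS_5C2095EE7, had 4694 FPKM at 4 °C compared with 5926 FPKM at 23 °C (0.792). The leading member of 4AL, Traes_4AL_B128F1907, had a ratio of 0.741, and that of 4BS, Traes_4BS_176348978, one of 0.933. The least different was Traes_4DS_CC9F9317E (0.975), and Traes_4BS_A666283DF had a ratio of 0.929. The most different were Traes_4DS_093764887, with 1107 FPKM at 4 °C, against 1733 FPKM at 23 °C (0.639), and Traes_4BS_9F3A928B7 (0.691). Traes_4AL_84CD4FDBD had a ratio of 0.841. Of the 4 members on the counterpart arms, the pair on 4BL was near equality and the pair on 4DL was higher at 4 °C. Traes_4BL_F32809B15 had 1616 FPKM at 4 °C compared with 1648 FPKM at 23 °C (0.98), and Traes_4BL_A9FAA75A9 a ratio of 0.994. Traes_4DL_5612CF456 had 1321 FPKM at 4 °C, against 1036 FPKM at 23 °C (1.28), and Traes_4DL_F394FF94A 1149.5 FPKM at 4 °C compared with 973 FPKM at 23 °C (1.18). The arm 4AS had no member, and its most abundant gene had 562 FPKM at 4 °C, against 524 FPKM at 23 °C.

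On the short arms of group 5 both members were at least 2-fold lower at 4 °C. Traes_5AS_9689E345A had 945 FPKM at 4 °C compared with 2265 FPKM at 23 °C (0.417), and Traes_5BS_8ECE54AC4 had 742 FPKM at 4 °C, against 2168 FPKM at 23 °C (0.342). The arm 5DS had no member. Its most abundant gene, Traes_5DS_E8892706A, was just below the threshold, with 950 FPKM at 4 °C compared with 982 FPKM at 23 °C (0.967). The less abundant Traes_5DS_581B4DB50 had 613 FPKM at 4 °C, against 1266 FPKM at 23 °C (0.484).

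Group 6 had members on the D chromosome alone. On 6DL there were 5 and on 6DS 2, with 11367 FPKM at 4 °C, against 15526 FPKM at 23 °C in all, a ratio of 0.732. No gene of 6A or 6B was a member. The most abundant gene of 6A, on 6AL, had 679 FPKM at 4 °C compared with 1107 FPKM at 23 °C. That of 6B, on 6BL, had 846 FPKM at 4 °C, against 726 FPKM at 23 °C. This unevenness was not limited to the members. Of the 3869 gene IDs of 6D, 100 averaged 100 to under 1000 FPKM. Only 10 of 4038 did so for 6A, and 32 of 3746 for 6B. The most abundant 6D member, Traes_6DL_DE5D1D2FD, had 3013 FPKM at 4 °C compared with 5414 FPKM at 23 °C (0.557), and that of 6DS, Traes_6DS_8D580A93D, had 1805 FPKM at 4 °C, against 2533 FPKM at 23 °C (0.712). The steepest difference was that of Traes_6DL_18CB2742C, with 499 FPKM at 4 °C compared with 1941 FPKM at 23 °C (0.257), and the highest ratio that of Traes_6DL_22C536081, with 1936 FPKM at 4 °C, against 1462 FPKM at 23 °C (1.32). Nearer equality were Traes_6DL_A19C3ABDA (1.09), Traes_6DL_C8292F26F (1.04) and Traes_6DS_7A1EB4B66 (0.845).

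In group 7 the members of the short arms all went the same way and those of the long arms did not. After median-of-ratios scaling the sum of the long arms was lower at 4 °C too (ratio 0.931). The scaled ratio of Traes_7BL_E01528223 was 0.966. In the deposited values, all 5 members on 7AS, 7BS and 7DS were lower at 4 °C, with ratios of 0.618 to 0.966. Traes_7AS_C05C7D06B1 led them with 2866 FPKM at 4 °C compared with 4236 FPKM at 23 °C (0.677). The other member of 7AS, Traes_7AS_0A1BAEEAD, had 2187 FPKM at 4 °C, against 3539 FPKM at 23 °C (0.618). Ratios were 0.692 for Traes_7DS_51D42FCC4, 0.744 for Traes_7BS_B0481B1EE and 0.966 for Traes_7DS_226F2DC27, which at 2686 FPKM at 4 °C compared with 2781 FPKM at 23 °C was the most abundant member of 7DS. On the long arms 3 of 5 were lower, among them the most abundant, Traes_7AL_04CA95CD6, with 2572 FPKM at 4 °C, against 3264 FPKM at 23 °C (0.788). Traes_7AL_A5EF0DB63 was higher, with 3068 FPKM at 4 °C compared with 1626 FPKM at 23 °C (1.89), just short of 2-fold. Traes_7DL_51CA70B80 (0.901) and Traes_7BL_E01528223 (1.04) lay near equality, and Traes_7AL_6BDC0C3EA had a ratio of 0.659. The 2 members of group 1 were Traes_1AL_C42DE440F with 979.6 FPKM at 4 °C, against 1929 FPKM at 23 °C (0.508), and Traes_1BL_5AD1617A8 with 1138 FPKM at 4 °C compared with 1126 FPKM at 23 °C (1.01).

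The 3 subgenomes held 24 members (A), 33 (B) and 29 (D), and the share of members that were lower at 4 °C was nearly the same in each, with 17 of 24 on A, 23 of 33 on B and 20 of 29 on D chromosomes. Summed levels of A members were 60417 FPKM at 4 °C, against 74763 FPKM at 23 °C (ratio 0.808). Those of B members were 56666 FPKM at 4 °C compared with 68570.1 FPKM at 23 °C (0.826), and those of D members 50774 FPKM at 4 °C, against 69621 FPKM at 23 °C (0.729). The D share of the members' FPKM was therefore lower at 4 °C, at 30.2% against 32.7% at 23 °C, while A took 36.0% at 4 °C and 35.1% at 23 °C and B took 33.8% at 4 °C and 32.2% at 23 °C. Without the group 2 short arms the A ratio was 0.937, the B ratio 0.927 and the D ratio 0.861. Without group 6 that of D was 0.728. Without Traes_2DS_3CC5F156F and Traes_5AL_AD0034878, the most abundant member of each of the 2 largest groups by sum, the ratio of D was 0.799 and that of A 0.762, so the order of A and D rests on these genes.

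The number and balance of transcripts did not enter the choice of members. The 86 genes had 310 transcripts in the table, with a median of 2 per gene and at most 23, while the 42972 genes had a median of 4. A sole transcript was listed for 30 of the 86 (34.9%), against 21.9% of the 42972 genes. In the 56 members with several transcripts, the leading one took a median of 75.5% of the gene's FPKM at 4 °C and 73.8% at 23 °C, and in 26 of them it took at least 80% at each temperature. The leading transcript was another one at 4 °C in 4 of the 56. These were Traes_2AL_079988C38 and 3 genes whose leading transcript took 58.0% or less at either temperature, Traes_2AL_264BF03F4, Traes_2AS_7425ED39F and Traes_5BL_7EDE873F5.

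The transcripts of a member all went the same way in some genes and not in others. A member's own direction is that of the sum over its transcripts, and how often transcripts went the same way in other genes was not counted. In 35 members with at least 2 transcripts at a mean of 100 FPKM or more, such transcripts numbered 93, and in 22 of the 35 genes all of them went the same way, while 13 were mixed. The 12 steeply lower genes on the group 2 short arms had 22 transcripts at a mean of 100 FPKM or more, all lower at 4 °C. Some of these were the only such transcript of their gene. The 12 genes were picked by the sum over their transcripts, so nothing further is read from this. In Traes_2DS_3CC5F156F, 5 transcripts had ratios of 0.174 to 0.326. By contrast, Traes_4DS_5C2095EE7 held 4 transcripts with ratios of 0.557 to 0.792 and 2 with ratios of 1.198 and 1.83. In Traes_6DS_8D580A93D, 1 transcript had 10.9 FPKM at 4 °C, against 410.2 FPKM at 23 °C, while the leading transcript of the gene had 1793 FPKM at 4 °C compared with 2123 FPKM at 23 °C. How reads common to several transcripts of a gene were divided among them is an estimate, whose error is unknown here.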

How the data were processed

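Leaf RNA of 6 libraries was sequenced, and the authors deposited FPKM values for 442311 assembled transcripts, with 1 value per transcript and temperature. The columns are named control and cold, per the file headers, and were taken as 23 °C and 4 °C because 4 °C is the lower labelled temperature. The submitters' processing notes name Cufflinks 2.1.1, Cuffdiff 2.1.1, STAR 2.3.0e, Trimmomatic 0.30 and CASAVA 1.8.2. What each tool did, the genome build, the annotation, and how 3 libraries became 1 value: not given in the sources used here. FPKM is relative to how many fragments were mapped in all, so a large difference in abundant genes can move all other values. The FPKM of a column summed to 1052450.0 at 4 °C and 1006040.0 at 23 °C. Depth is unknown, and no interval or detection limit can be given.

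A gene's level was the sum over its transcripts. Ratios are 4 °C over 23 °C, and 2-fold differences were counted on log2(FPKM + 1) over 42972 genes that averaged 1 FPKM or more, with Python 3.11.15, pandas 2.3.3 and numpy 2.4.6. The counting was tested on simulated data. Members, arm groups and lists were chosen with earlier results of these data known. The naming rule took the 10 highest means, the 3 highest and 3 lowest ratios, the leader of each arm group, every member on the group 2 short and group 5 long arms, and the 3 genes on each side of the threshold. Other genes were named after their values were seen. Alternatives were other thresholds, scaling, pseudocount and filter, the leading transcript alone, and sets without group 6 or single genes.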

Additional observations from a re-analysis of the deposited data

How the results depend on the processing

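No paired analysis was possible because each temperature has a lone value in the table, and so leaving out single libraries could not be tried either. Levels have no error, so a value counts as moved when its printed form differs. A count was taken as kept when it stayed within 1.5 times the main count. Every alternative named here kept the direction of the results listed next, the order of the subgenomes aside. Median-of-ratios scaling did turn 6 single members and the sum of 7AL, 7BL and 7DL from higher to lower at 4 °C. Depth sets no limit that can be stated. Of 86 members, 4 were 2-fold or more higher, 19 were 2-fold or more lower and 60 were lower by any amount at 4 °C, with a median log2 ratio of -0.32. Ratios of sums were 0.460 (group 2 short arms), 1.18 (group 5 long arms), 0.808 (A), 0.826 (B) and 0.729 (D), and the members' share of all FPKM differed by -5.22 percentage points (4 °C minus 23 °C). In the same order, a mean of at least 500 FPKM (188 members) gave 15, 38 and 121, -0.21, 0.479, 1.06, 0.818, 0.810, 0.804 and -6.46, and a mean of at least 2000 FPKM (27 members) gave 0, 5 and 19, -0.34, 0.339, 1.29, 0.783, 0.877, 0.725 and -3.03; more or fewer members were counted in these. The leading transcript alone gave counts of 4, 19 and 63, all within 1.5 times. Its median was -0.30, its ratios 0.456, 1.17, 0.825, 0.801 and 0.769, and its share -4.10 points. Median-of-ratios scaling gave counts of 4, 21 and 66, likewise within 1.5 times, with a median of -0.43 and ratios of 0.426, 1.09, 0.748, 0.764 and 0.675. Without group 6 the median was -0.34, the ratio of D 0.728 and the share -5.17 points. A pseudocount of 0.1 moved nothing. Among alternatives chosen after seeing the data, leaving out Traes_2AL_079988C38 gave -0.34, 0.777 for A and -5.44 points. Leaving out the most abundant member of the group 2 short arms and of the group 5 long arms gave 0.499 and 1.17 for these arms, 0.762 for A, 0.799 for D and -4.67 points. The order of the subgenomes by ratio (B, A, D) was A, B, D at 500 FPKM and with the leading transcript alone, and B, D, A without these 2 genes. Among all genes tested, 5589 were 2-fold or more higher at 4 °C and 3030.0 lower with no filter. With a minimum mean of 5 FPKM the numbers were 3480.0 and 1533, in place of 5318 and 2846.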

Other observations

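Transcripts without a gene ID are outside the member rule, and 8 of them reached a mean of 1000 FPKM or more. Of these, 7 were lower at 4 °C, 5 of them at least 2-fold. The only one that was higher had 4031 FPKM at 4 °C, against 133 FPKM at 23 °C. The 3 most abundant were the most different of the 7, all lower at 4 °C. The first had 2614 FPKM at 4 °C, against 18762 FPKM at 23 °C (ratio 0.139), a level at 23 °C above that of any member. The second had 721 FPKM at 4 °C compared with 6277 FPKM at 23 °C (0.115), and the third 1111 FPKM at 4 °C, against 5379 FPKM at 23 °C (0.206). The 4 least abundant of the 8 were also lower at 4 °C, with 1023 FPKM at 4 °C against 2252 FPKM at 23 °C, 1199 FPKM at 4 °C against 1784 FPKM at 23 °C, 1131 FPKM at 4 °C against 1574 FPKM at 23 °C, and 616 FPKM at 4 °C against 1486 FPKM at 23 °C. The arms of the 8 are not given by the table, so they enter none of the sums by arm or subgenome.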
